A study of Mus musculus with 2 samples.

Results

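Mir204 and Mir211 are the loci of miR-204 and miR-211, a pair of related microRNAs that lie within genes of the TRPM family of cation channels. Their rows were found by Ensembl identifier in tables of microRNA gene counts, where they were 2 of 1973 rows, and both had counts in every library. The libraries came from total RNA of single forebrains, 1 from pup 3 and 1 from pup 1, both B6NCrl mice taken at postnatal day 0, with no genetic or drug treatment named in the labels. These 2 animals form 1 group, so no condition was compared. The results are the level of each locus, its spread between the pups (mean ± SD, n = 2 throughout) and the difference between the 2 libraries. Both pups carry the same donor entry and their sex was not recorded. The library of pup 3 held 2427066 reads on the gene strand of the miRNA loci, and that of pup 1 held 2742746.

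A microRNA is cut from a hairpin precursor and guides the repression of messenger RNAs, chiefly through its seed, the bases near its 5′ end that pair with the target. In the brain miR-204 is known as a microRNA of the choroid plexus, the epithelium that makes cerebrospinal fluid, and both miR-204 and miR-211 are abundant in the retinal pigment epithelium. miR-211 is also known from pigment cells, where its host Trpm1 is transcribed. The choroid plexus lies within the brain's ventricles, but the labels give the tissue only as forebrain, and the tables hold no information on cell type. Which cells of the forebrain the counts came from was not measured.

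The mature sequences show how closely the members are related. They are taken from RefSeq (GRCm38.p6), where both members were matched by symbol, and the seed (bases 2 to 8) is in capitals:
miR-204-5p: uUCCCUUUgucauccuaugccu
miR-211-5p: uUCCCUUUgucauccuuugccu
miR-204-3p: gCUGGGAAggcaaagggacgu
miR-211-3p: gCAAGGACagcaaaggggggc
The 5p arms share their seed and were identical at 21 of 22 positions, the single difference being A17U (miR-204-5p base, position counted from its 5′ end, miR-211-5p base). The 3p arms differ at 7 of 21 positions, and 3 of the differences, U3A, G4A and A8C, lie within the seed. Of the 1738 mature sequences in the table, 1 other had the 5p seed, miR-7670-3p, and its locus Mir7670 had 0 counts in pup 3 and 0 in pup 1. The deposited rows count reads per locus, so the 5p and 3p arms of a member cannot be told apart here.

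The hairpins around these arms are printed with the 5p and the 3p arm in capitals, because a row counts every read that falls within its locus:
Mir204: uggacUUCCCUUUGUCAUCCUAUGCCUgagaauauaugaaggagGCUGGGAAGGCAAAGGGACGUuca
Mir211: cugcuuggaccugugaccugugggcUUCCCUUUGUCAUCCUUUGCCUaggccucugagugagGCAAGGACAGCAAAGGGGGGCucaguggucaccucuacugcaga
The annotated locus of Mir204 was 68 nt long with 48.5% G and C, and that of Mir211 106 nt with 57.5%. The longest run of bases that these hairpins had in common was 17 nt. With any of the other hairpins of the table, the longest run was 12 nt for each member, and neither shared a run of 20 nt with another hairpin. Reads that map to several places, 44.1% of all reads in pup 3 and 42.2% in pup 1, are counted at no locus. How many of these came from miR-204 or miR-211 was not tested.

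Mir204 (ENSMUSG00000065507.2) lies on chromosome 19, 22750605 to 22750672 of GRCm38, on the plus strand. Its host Trpm3, which encodes a calcium-permeable TRP channel, spans 856 kb on the same strand (22139046 to 22995410). Of 24 annotated Trpm3 transcripts, 18 span the locus, all with it in an intron, and Mir204 is the only miRNA gene annotated within Trpm3. Mir211 (ENSMUSG00000065585.1) lies on chromosome 7, 64205806 to 64205911, also on the plus strand. Its host Trpm1, which encodes the channel of retinal ON bipolar cells, spans 116 kb (64153835 to 64269775). Of 23 annotated Trpm1 transcripts, 12 span Mir211, all with it in an intron. A second miRNA gene annotated within Trpm1, Mir6416, lies 44.1 kb from Mir211 on the opposite strand and had 0 counts in both pups. Host messenger RNAs have no row in these tables, so Trpm3 and Trpm1 themselves were not measured.

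Mir204 was one of the more abundant miRNA loci of the newborn forebrain, and few reads were counted at Mir211 in either library. Both statements rest on reads counted at a locus, which leave out those that map to several places. Mir204 had 5517 counts in pup 3 and 8039 counts in pup 1. Scaled to a total of 1e+06 counts (CPM), this was 2273 CPM in pup 3 (2214 to 2334, the 95% Clopper-Pearson interval, which is exact) and 2931 CPM in pup 1 (2867 to 2996). The share was lower in pup 3, and the intervals of the pups do not overlap. The mean was 2602 ± 465 CPM, or 0.260% ± 0.0465 of all counts on the gene strand.

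Mir211 had 16 counts in pup 3 and 19 counts in pup 1. Its level was 6.59 CPM in pup 3 (3.77 to 10.7) and 6.93 CPM in pup 1 (4.17 to 10.8), and the intervals of the pups overlap over most of their length. The mean was 6.76 ± 0.237 CPM, or 0.000676% ± 2.37e-05 of the counts. That SD is far smaller than the counting error of either library, so it does not measure how much animals vary. No molecular identifiers are named in the labels, so PCR duplicates were counted and all intervals reflect counting error alone.

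**Figure D1:**
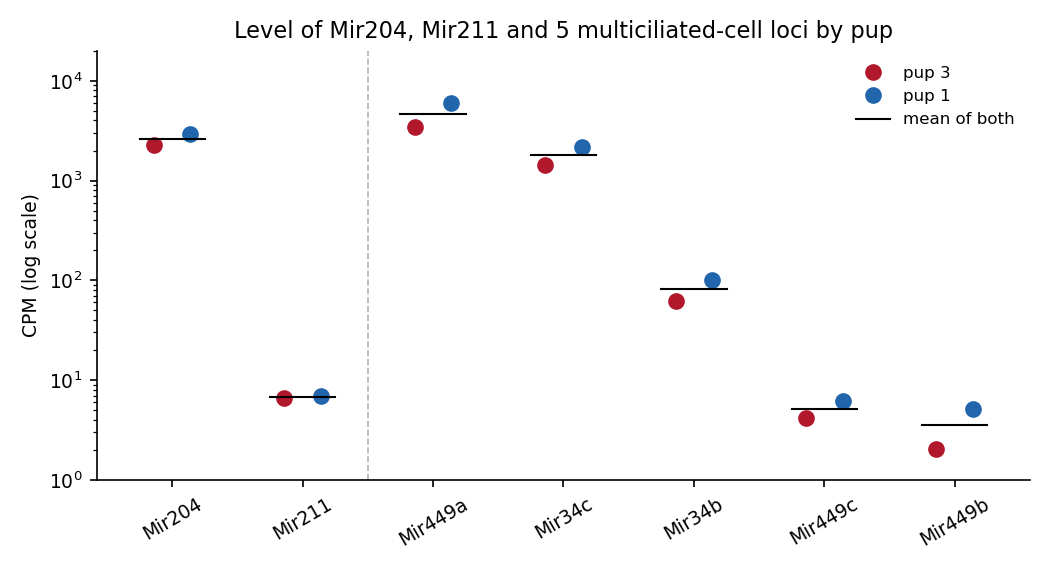
Level of Mir204, Mir211 and the 5 loci of the multiciliated cell list in CPM (log axis), with a point for pup 3 (red, left), a point for pup 1 (blue, right) and a bar at their mean. Mir204 stands at 2273 CPM in pup 3 and 2931 CPM in pup 1, between Mir449a and Mir34c, while Mir211 stands near 7 CPM in both pups, just above Mir449c.

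Nearly all reads of the pair came from Mir204. Of 5533 counts of both members in pup 3, 99.7% were at Mir204 and 0.289% at Mir211 (exact interval 0.165 to 0.469%). Of 8058 counts in pup 1, 99.8% were at Mir204 and 0.236% at Mir211 (0.142 to 0.368%). Mir204 stood 345-fold above Mir211 in pup 3 (212 to 604) and 423-fold in pup 1 (271 to 703). Counted per base of the annotated locus, which is shorter for Mir204, the folds were 538 in pup 3 and 660 in pup 1. The mean log2 ratio of CPM + 1 of Mir204 over Mir211 was 8.38 ± 0.22. Ligation and amplification favour some small RNAs over others, and how far that moves this ratio was not tested. The 5p arms differ at only 1 base, and the rows do not say which arm was sequenced. Whether miR-204-5p reads with an error at that base were counted at Mir211 was not tested. The level and rank of Mir211 and its ratio to Mir204 carry this limit.

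On the opposite strand of both loci the tables hold 0 counts in both pups, which allows a level of up to 1.24 CPM in pup 3 and 1.09 CPM in pup 1. All counts at Mir204 and Mir211 were therefore on the strand of their hosts. Columns for both strands together and for the gene strand held the same counts at both members.

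By mean CPM, Mir204 stood at rank 61 of the 1973 rows, at rank 61 in pup 3 and 62 in pup 1, so its place was nearly the same in both animals. The loci directly above it were Mir1298 (2603 ± 818 CPM), Mir298 (2725 ± 40.7 CPM) and Mir92b (2886 ± 928 CPM). Directly below came Mir1983 (2600 ± 399 CPM), the imprinted Mir434 (2588 ± 564 CPM) and Mir484 (2566 ± 341 CPM). The pups' values of all 6 overlapped those of Mir204, so none of these neighbours could be ordered against it. Per kb of locus, Mir204 stood at rank 57 of the 1894 loci with annotated bounds, just below Mir484.

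Mir211 stood at rank 315, 308 in pup 3 and 318 in pup 1, and 355 rows with a count had a lower mean. Its neighbours above were Mir181b-1 (6.92 ± 1.04 CPM), Mir29b-1 (7.01 ± 3.50 CPM) and Mir124a-1 (7.06 ± 2.25 CPM), of the neuronal miR-124. Those below were Mir5101 (6.71 ± 1.34 CPM), Mir1912 (6.37 ± 0.270 CPM) and Mir3076 (6.35 ± 0.820 CPM). The values of 5 of the 6 overlapped those of Mir211, and those of Mir1912 lay just below, by less than the counting error of either locus. Per kb of locus the rank of Mir211 was 329. These ranks order loci by the reads counted at them, and multiply mapped reads are counted at none. A microRNA with several loci, such as miR-124, can therefore stand higher than any of its rows. Of all rows, 331 had at least 10 counts in both pups, Mir211 among them, and 1303 had no count in either.

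**Figure D2:**
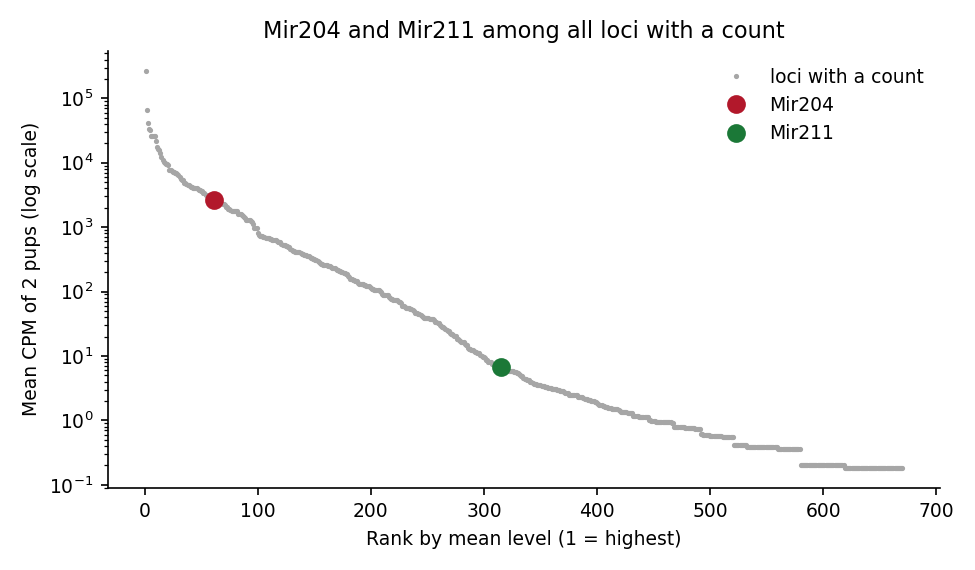
Mean level of the 2 pups in CPM (log axis) against rank for every locus with a count (grey), with Mir204 (red) and Mir211 (green) marked. Mir204 lies at rank 61 on the steep early part of the curve and Mir211 at rank 315, far down the long tail.

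Between the libraries Mir204 took a smaller share of the counts in pup 3, and the size of this difference depended on how the libraries were scaled. Its log2 ratio of pup 3 over pup 1 was -0.37 (exact interval -0.42 to -0.32), a ratio of 0.776, and it passed a two-sided Fisher's exact test of Mir204 reads against all other reads (p = 1.01e-47, Benjamini-Hochberg adjusted over the 400 loci that had 10 or more counts in sum). Each side is 1 pup, so the test compares these libraries and not a condition. Of the 400 loci, 226 (56.5%) passed this test, 41 (10.2%) higher in pup 3 and 185 (46.2%) lower, so a lower share in pup 3 was common among all loci. Over the 400 loci the log2 ratio had a median of -0.31, from which Mir204 differed by -0.05, with 171 loci lower and 228 higher in ratio.

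With library sizes adjusted by TMM, the ratio of Mir204 was -0.12 (exact binomial test, adjusted p = 1.37e-05), and with DESeq2 size factors it was -0.05 and did not pass (adjusted p = 0.0740). With TMM, 186 of the 400 loci passed (46.5%), 82 (20.5%) higher in pup 3 and 104 (26%) lower, around a median of -0.08. With size factors 181 passed (45.2%), 98 (24.5%) higher and 83 (20.8%) lower, around a median of -0.02. The log2 ratio of Mir204 was below 0 on all 3 scales. In CPM from library totals, Mir204 varied between the libraries about as other loci of its level did. Its coefficient of variation was 17.9%, against a median of 14.8% over the 79 loci of 1000 to 10000 CPM, and 29 of these had a higher one. This coefficient includes the shift in scale between the libraries, and it was not computed with TMM or size factors.

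Mir211 had a log2 ratio of -0.06, with an exact interval of -1.13 to 0.97, and did not pass (adjusted Fisher's exact p = 1). With TMM sizes its ratio was 0.16 and with size factors 0.21, so its sign turned with the scale, and none of these passed. The interval does not exclude a 2-fold lower level in pup 3. The ratio of pup 3 over pup 1 of Mir204 was 0.815 times that of Mir211 (exact conditional interval 0.397 to 1.70), a comparison that needs no library scaling, and the difference did not pass Fisher's exact test (two-sided p = 0.606).

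**Figure D3:**
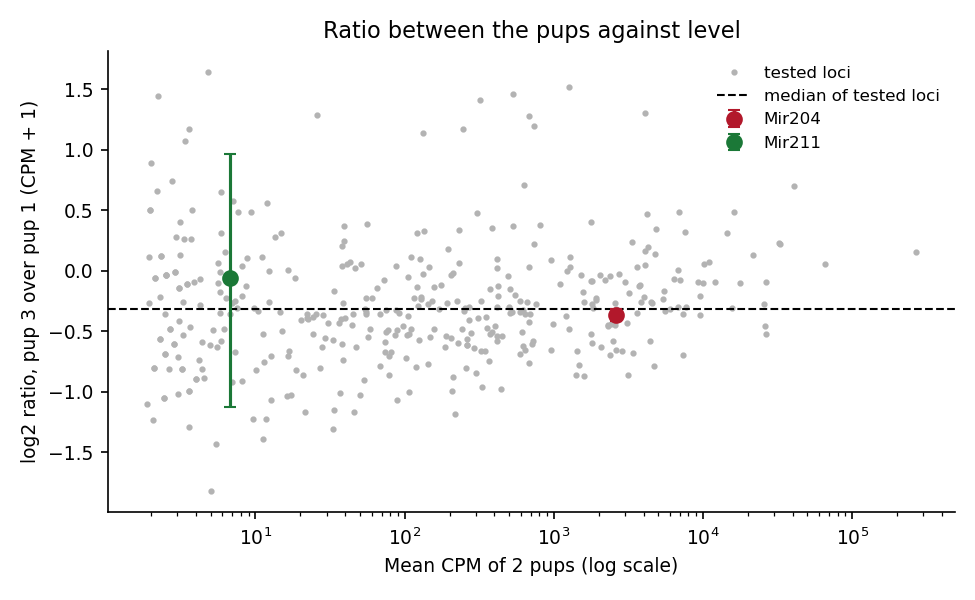
Log2 ratio of pup 3 over pup 1 (CPM + 1) against mean CPM (log axis) for the 400 tested loci (grey), with the median of -0.31 as a dashed line and exact 95% intervals for Mir204 (red) and Mir211 (green). Mir204, at -0.37, lies next to the median with an interval smaller than its marker, and the interval of Mir211 runs from -1.13 to 0.97.

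The ratio between the pups was set against that of every other tested locus by Fisher's exact test on the counts of Mir204 and that locus, which does not depend on library scaling. Of 399 loci, 169 (42.4%) differed from Mir204 after adjustment, 105 (26.3%) with relatively more reads in pup 3 than Mir204 and 64 (16%) with relatively fewer. For Mir211 the same test called 0 of 399 loci (0%), with 17 at an unadjusted p under 0.05. By the nearest log2 ratio over the 2 libraries, the loci with at least 100 summed counts most like Mir204 were Mir302a, Mir26b, Mir181b-2, Mir212 and Mir144, all within 0.01 of it (0.00338 to 0.00546 on the log2 scale). For Mir211 they were Mir139, Mir125a, Mir10a, Mir872 and Mir301b, within 0.00866 to 0.0148. With 2 libraries this likeness is a single number per locus, and many unrelated loci reach it.

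The list nearest to Mir204 in its known site holds miRNA loci of multiciliated cells, which in the brain include the ependyma that lines the ventricles and the epithelium of the choroid plexus. All 5 of its loci, of the miR-34 and miR-449 families that are needed for cells to grow many motile cilia, had counts, and 4 had at least 10 in both pups. Mir449a had 3430 CPM in pup 3 and 5923 CPM in pup 1, and Mir34c had 1428 CPM in pup 3 and 2163 CPM in pup 1. In mean CPM, Mir204 stood 1.45-fold above Mir34c and at 0.556 times Mir449a. Per kb of locus, which favours the short locus of Mir204, it stood 1.64-fold above Mir34c and at 0.745 times Mir449a. Mir34b (81.1 ± 26.6 CPM), Mir449c (5.16 ± 1.47 CPM) and Mir449b (3.58 ± 2.15 CPM) were lower. Mir204 stood 32.1-fold, 504-fold and 726-fold above them in mean CPM, and 39.7-fold, 808-fold and 855-fold per kb. Mir211, at 6.59 CPM in pup 3 and 6.93 CPM in pup 1, lay just above Mir449c, at 4.12 CPM in pup 3 and 6.20 CPM in pup 1.

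Mir449a and Mir34c were lower in pup 3 by more than Mir204 was. Relative to library totals, 3 of the 5 were lower in pup 3 (background 46.2%), none was higher, and Mir449c and Mir449b did not pass. Mir34b and Mir34c lie close together on chromosome 9, and the miR-449 loci on chromosome 13, so the 5 are not independent. The median log2 ratio of the 5 was -0.67, against -0.31 over all tested loci and -0.37 for Mir204. Mir449a had -0.79, which with TMM was -0.54 and with size factors -0.47, so it was lower on every scale. For each read of Mir204 there were 1.51 reads of Mir449a in pup 3 and 2.02 in pup 1. The log2 ratio of Mir204 exceeded that of Mir449a by 0.42 (exact conditional interval 0.36 to 0.48, adjusted Fisher's exact p = 1.13e-38) and that of Mir34c by 0.23 (0.15 to 0.31, adjusted p = 2.84e-08). It exceeded that of Mir34b by 0.32 (0.02 to 0.62), which did not pass (adjusted p = 0.0763). The values of Mir449c and Mir449b, 0.22 (-0.99 to 1.51) and 0.94 (-0.61 to 2.77), rest on fewer than 20 counts in each pup. In a whole forebrain, fewer cells of a type and less RNA per cell cannot be told apart.

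Most epithelial loci were higher in pup 3, where Mir204 was not. The miR-200 family and its companions in this list mark epithelia in general, of which the choroid plexus is only one. The 7 loci summed to 10570 CPM in pup 3 and 4929 CPM in pup 1, and 5 were higher in pup 3 (background 10.2%), none was lower, and Mir203 and Mir205 did not pass. The 5 higher loci lie in close groups on chromosome 4 and chromosome 6, so they do not count as 5 independent loci. With TMM (background 20.5%) or size factors (24.5%) 6 were higher. Mir204 had 0.215 times the summed CPM of the list in pup 3 and 0.595 times in pup 1. Mir429, its highest locus, had 5822 CPM in pup 3 and 2361 CPM in pup 1, Mir200b had 1880 CPM in pup 3 and 657 CPM in pup 1, and Mir203, a microRNA of skin, had 1225 CPM in both. The log2 ratio of Mir204 lay below that of 6 of the 7 loci in the pairwise test (background 26.3%). The difference was -1.67 for Mir429 (exact conditional interval -1.73 to -1.60), -1.88 for Mir200b (-1.98 to -1.79) and -0.37 for Mir203 (-0.45 to -0.28, adjusted p = 7.97e-16). Mir205 did not differ detectably from Mir204, at a difference of 0.03 (-0.50 to 0.58, adjusted p = 0.985).

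Loci of the eye and sensory organs were included because the retinal pigment epithelium also makes miR-204 and miR-211. Their summed level was 2148 CPM in pup 3 and 884 CPM in pup 1. Mir183, Mir182 and Mir96, cut from the same transcript of sensory cells, were all higher in pup 3 (3 of 4 loci, background 10.2%), and also with TMM (20.5%) and size factors (24.5%). Mir182 had 1021 CPM in pup 3 and 445 CPM in pup 1, Mir183 had 784 CPM in pup 3 and 285 CPM in pup 1, and Mir96 had 340 CPM in pup 3 and 151 CPM in pup 1. The pairwise test put Mir204 below all 3 (background 26.3%), by a log2 difference of -1.57 for Mir182 (-1.68 to -1.45), -1.83 for Mir183 (-1.96 to -1.70) and -1.54 for Mir96 (-1.72 to -1.36). Mir184, a microRNA of lens and cornea, had 6 counts in pup 3 and 10 in pup 1, at 2.47 CPM and 3.65 CPM, and did not pass either test. The part of other tissue in the counts of Mir204 and Mir211 was not tested.

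**Figure D4:**
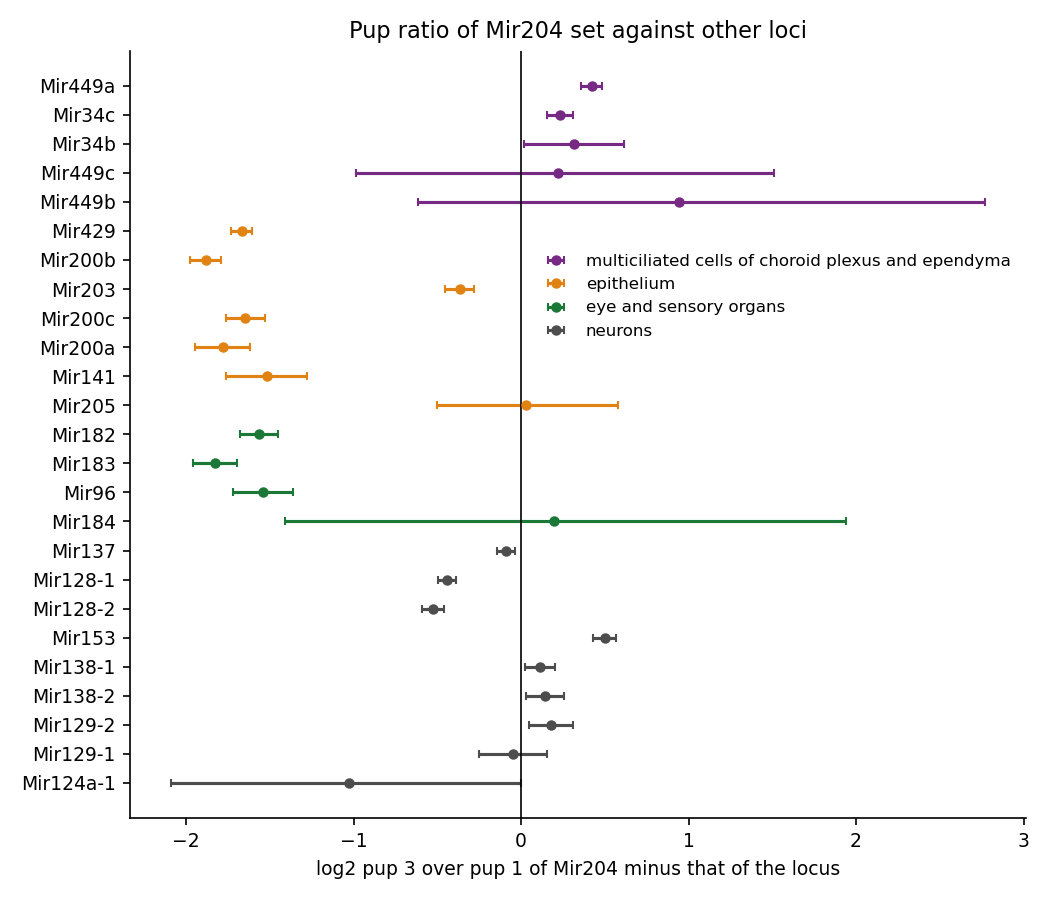
Log2 ratio of pup 3 over pup 1 of Mir204 minus that of each tested locus of 4 lists, with exact conditional 95% intervals of counting error. Points right of 0 are loci that were lower in pup 3 relative to Mir204, such as Mir449a at 0.42, and points left of 0 are loci that were higher, such as Mir200b at -1.88.

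Neuronal loci, listed because the labelled tissue is forebrain, summed to 43288 CPM in pup 3 and 49895 CPM in pup 1. Mir204 had 0.0525 times that level in pup 3 and 0.0587 times in pup 1. Mir137, a regulator of neuronal maturation, led with 25786 ± 3504 CPM, followed by Mir128-1 (11051 ± 405 CPM) and Mir128-2 (4084 ± 319 CPM). The 3 loci of miR-124, the best-known neuronal microRNA, were near the bottom of the list, Mir124a-1 at 7.06 ± 2.25 CPM, Mir124a-2 at 1.74 ± 0.124 CPM and Mir124a-3 at 0.959 ± 0.191 CPM, the last 2 too low to test. Of the 9 tested loci 2 were higher in pup 3 (background 10.2%) and 6 lower (46.2%), with a median of -0.31, the same as over all loci. With size factors 3 were higher (background 24.5%) and 4 lower (20.8%). Of the 8 neuronal loci with a hairpin in the table, 6 share a run of 20 nt with another hairpin, and Mir204 shares none of that length. How many multiply mapped reads belong to these loci was not tested. The 3 loci of miR-124 have no hairpin in the table, so shared runs were not looked up for them. Since multiply mapped reads are counted at no locus, the low counts of these 3 loci do not give the level of miR-124. In the pairwise test Mir137 differed from Mir204 by only -0.09 (-0.14 to -0.04, adjusted p = 0.00242), while Mir128-1 differed by -0.44 (-0.50 to -0.39) and Mir153 by 0.50 (0.43 to 0.57).

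The remaining lists stand for other cells that a dissected forebrain can hold. Blood vessel loci summed to 39382 CPM in pup 3 and 34960 CPM in pup 1, led by the endothelial Mir126a, from whose log2 ratio that of Mir204 differed by -0.59 (-0.64 to -0.54). Relative to totals 1 of the 3 vessel loci was higher in pup 3 (background 10.2%) and 2 were lower (46.2%), and with size factors 2 were higher (24.5%) and none lower (20.8%). The 2 that were lower relative to totals lie close together on chromosome 18. Red blood cell loci summed to only 71.3 CPM in pup 3 and 88.2 CPM in pup 1, so Mir204 stood 31.9-fold above their sum in pup 3 and 33.2-fold in pup 1. None of the 3 differed detectably from Mir204 in the pairwise test, at few counts and with wide intervals. These were -0.30 to 0.50 for Mir451a, -0.55 to 0.58 for Mir144 and -1.40 to 0.06 for Mir486. Of the 3 loci, 1 was lower in pup 3 relative to totals (background 46.2%), and none with TMM (26%) or size factors (20.8%). Hox cluster loci, which mark hindbrain and spinal cord, summed to 268 CPM in pup 3 and 236 CPM in pup 1, and Mir204 stood 8.49-fold above their sum in pup 3 and 12.4-fold in pup 1. Of their 4 tested loci, 2 were higher in pup 3 (background 10.2%) and 3 had relatively more reads in pup 3 than Mir204 (background 26.3%), with a difference of -0.70 for Mir10b (-0.92 to -0.47).

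Mir7b, a microRNA of the pituitary and hypothalamus, was close to Mir204 in CPM, with 1825 CPM in pup 3 and 2958 CPM in pup 1, and per kb of locus Mir204 stood 1.78-fold above it. The log2 ratio of Mir204 exceeded that of Mir7b by 0.33 (adjusted Fisher's exact p = 2.95e-18). The other 3 pituitary and neuroendocrine loci, Mir7-2, Mir7-1 and Mir375, did not differ from Mir204 beyond the threshold. Mir7-2 and Mir7-1 each share a run of 20 nt with another hairpin, and their part of the multiply mapped reads was not tested. The whole list summed to 3189 CPM in pup 3 and 4621 CPM in pup 1, and all 4 loci were lower relative to totals (background 46.2%), 1 of them, Mir7b, with size factors as well (20.8%).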

How the data were processed

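For each library the authors deposited raw counts of reads per miRNA gene, without normalization, on assembly mm10 with annotation M4 per the text deposited with the files. Aligner and counting tool: not given in the sources used here. Counts on the gene strand were taken, as the layout of the columns shows them, and the 4 rows that name no gene stayed out of totals. Of all reads, 12.3% were unmapped in pup 3 and 13.4% in pup 1, 44.1% and 42.2% mapped to several places, and 2.27% and 3.23% lay outside loci. Names, positions and hosts came from GENCODE M21 (GRCm38, the same assembly), which matched 1894 rows. The tables give Mir204 under another version suffix than M21, so identifiers were matched without it. Sequences came from RefSeq.

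Ratios used CPM + 1. With 1 library a side, edgeR's quasi-likelihood test has no residual degrees of freedom, so Fisher's exact test was applied to loci of 10 or more summed counts (adjusted threshold 0.05), and exact binomial tests with TMM or DESeq2 sizes. Zero counts took a floor of 3 counts. The members and the lists were chosen with earlier results of these data known. Loci named besides the members were the multiciliated list, the 3 highest of other lists, the 3 above and below each member in mean CPM, and the 5 nearest in ratio. Mir205, Mir184, Mir153, Mir124a-2, Mir124a-3, Mir375, Mir6416 and Mir7670 were named after their values were seen. Software was R 4.3.3 with DESeq2 1.42.0 and edgeR 4.0.16, and Python 3.11.15 with scipy 1.17.1, pandas 2.3.3, numpy 2.4.6 and matplotlib 3.10.9.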

Additional observations from a re-analysis of the deposited data

How the results depend on the processing

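The share of Mir204 was 0.355% with the most abundant locus, Mir99a, left out of the totals and 0.107% of all reads, and that of Mir211 0.000925% and 0.000279%. Leaving out a replicate gave 0.227% to 0.293% for Mir204, 0.000659% to 0.000693% for Mir211 and 8.23 to 8.53 for the log2 ratio of Mir204 over Mir211, which was 9.20 per base of locus. The log2 ratio of pup 3 over pup 1 of Mir204 ran from -0.37 to -0.053 over its alternatives, and with DESeq2 size factors, at -0.053, it no longer passed (adjusted p = 0.0740). That of Mir211 turned to 0.16 with TMM and to 0.21 with size factors, and passed under none. The cause was not tested. The other 36 alternative values, unstranded counts, pseudocounts of 0.5 and 0 and filters among them, kept their direction and their side of the threshold, or moved by less than the spread between the pups, and counts of called loci stayed within 1.5-fold. Some of these could not have come out otherwise. With n = 2, leaving out a replicate always moves the mean by less than the SD. Pseudocounts do not enter Fisher's exact test, and the unstranded column holds the same counts at both members. A filter of 100 summed counts removes Mir211, and leaving out a replicate leaves no ratio between the pups. No paired analysis was possible because the series holds 1 group. Depth limits every statement on Mir211.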
